A study of Mus musculus with 8 samples.

Results

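Pattern recognition receptors are the germline-encoded sensors with which macrophages and dendritic cells detect microbial and damaged-cell molecules. Expression of 49 genes of this system was compared between MHCII-high and MHCII-low macrophages from mouse pancreas tumours, out of 28000 genes tested. The 49 genes were chosen by name: 5 Toll-like receptors (TLRs) of the cell surface, 7 TLRs of endosomes, 15 cytosolic sensors, 6 co-receptors or chaperones, 8 TLR adaptors or kinases, 3 cytosolic adaptors, 3 inflammasome adaptor or caspase genes and 2 regulatory NOD-like receptors. All 49 had at least 1 probe under their name on the array, and the brightest of these was well above background on all 8 arrays for every one of them.

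Tumour macrophages had been sorted by their surface MHC class II, which displays peptides to helper T cells, to give 4 MHCII-high and 4 MHCII-low samples, each hybridised to 1 array. Both groups came from female mice aged 8 to 10 weeks of a strain written FvBn in the labels, which had been implanted with tumours, with no genotype given, although the design text of the series speaks of wild-type, KPC and FLT3-CRE/LSL-YFP animals. The gates other than MHCII are not given in the sources used here. Each group carries the label numbers 20435, 20436, 20439 and 20442 once. Whether different animals supplied the 4 samples of a group is not stated. The p-values therefore measure spread among these samples alone, which could be technical. Below, values listed by array follow the order 20435, 20436, 20439, 20442, and each is a log2 processed signal relative to the 75th percentile of its array.

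Per array, 38756 to 42120 of the 56605 probes stood well above background. Macrophage markers were present in both groups: Cd68, Csf1r, Adgre1 and Mertk were well above background on all 8 arrays, and the mean log2 signal of 8 macrophage markers was 3.79 to 4.13 in MHCII-high and 4.14 to 4.59 in MHCII-low. Of these 8, 1 passed the threshold: Adgre1 was lower in MHCII-high (log2 -1.69, adjusted p = 0.00439, and 0.0261 when slide row was a block). In 3 of the 8 the groups did not overlap, all 3 lower in MHCII-high. Over all genes tested, 4.94% passed the threshold and 14.4% had groups that did not overlap, 6.85% lower in MHCII-high. Of 12 dendritic cell markers, 9 were higher in MHCII-high, with a mean log2 signal of 0.35 to 1.49 there and -1.78 to -1.31 in MHCII-low. Flt3 and Zbtb46, which define dendritic cells, were higher in MHCII-high (log2 4.47 and 1.75, limma adjusted p = 0.00213 and 0.0148). With slide row as a block Flt3 still passed (0.0137) and Zbtb46 did not (0.0711). Both were also well above background on all 4 MHCII-low arrays. On MHCII-low 20435, however, Flt3 was at -5.34, where the lowest signal above background was -5.45. Of 8 tissue-resident macrophage markers, 5 were lower in MHCII-high, with means of -1.94 to -0.09 there and 1.54 to 2.10 in MHCII-low. In such sorted bulk samples, fewer cells of a type and less RNA per cell cannot be told apart. The 8 arrays lay on 1 slide in 2 rows. Of the MHCII-high arrays 1 was in row 1 and 3 in row 2, and of the MHCII-low arrays 3 and 1, so a within-row value depends on a lone array and shows direction.

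Surface TLRs bind lipids and proteins of microbes outside the cell, and endosomal TLRs bind nucleic acids or, in mice, protozoan profilin after uptake. Most TLRs signal through the adaptor Myd88 and the IRAK kinases to NF-kappa B. Cytosolic sensors read products that reach the cell interior: NOD-like receptors and Aim2 can assemble inflammasomes, in which Pycard recruits and activates Casp1, while RIG-I-like helicases and cGAS signal through Mavs and Tmem173 (STING) to interferon genes.

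The probe sequences behind the 3 largest changes among the 49 genes are shown, since a microarray value is the signal of 1 designed oligonucleotide. Each is 60 bases long and is printed 5′ to 3′ as the files give it, with positions on mm9. The Lbp probe spans 3543 genomic bases and therefore joins separate stretches of genomic sequence. Exon and UTR annotation of that build was not used here.
Tlr12 (chr4:128292690-128292749, minus strand): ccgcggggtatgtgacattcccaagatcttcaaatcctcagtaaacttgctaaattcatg
Lbp (chr2:158154142-158157684, plus strand): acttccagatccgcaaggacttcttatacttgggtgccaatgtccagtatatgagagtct
Naip1, brightest probe (chr13:101178114-101178173, minus strand): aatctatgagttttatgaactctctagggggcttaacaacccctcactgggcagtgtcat
Naip1, second probe (chr13:101196762-101196821, minus strand): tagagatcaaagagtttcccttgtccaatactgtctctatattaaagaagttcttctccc

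Of the 49 genes, 7 passed an adjusted p of 0.05 in limma. Tlr12 and Myd88 rose in MHCII-high, and Tlr7, Naip1, Nod1, Lbp and Nlrc3 fell. The share was 14.3%, where 4.94% of all genes tested passed. By direction it was 4.08% higher against 2.7% of all genes, and 10.2% lower against 2.25%. The 49 genes were chosen with earlier results of these data known, so these shares describe the list and do not test it. Of the 7, 5 changed by at least 2-fold: Tlr12, Tlr7, Naip1, Nod1 and Lbp. All 49 were well above background on all 8 arrays, and of all genes for which this held 5.01% passed. The arrays of the groups did not overlap for 19 of the 49 (38.8%), where this held for 14.4% of all genes. Of these, 8 were higher and 11 lower in MHCII-high, beside 7.57% and 6.85% of all genes. The median log2 fold change, MHCII-high minus MHCII-low, was -0.16 over the 49 genes and 0.01 over all genes. Tlr7, Tlr12, Lbp and Naip1 kept their calls in all 8 fits that left out 1 array. Without any of the 4 MHCII-high arrays, or without MHCII-low 20439 or 20442, 3 genes were lower, and without MHCII-low 20435 or 20436 there were 4. Myd88 passed in 1 of these 8 fits, the one without MHCII-high 20442, and in the others 1 gene, Tlr12, was higher.

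**Figure D1:**
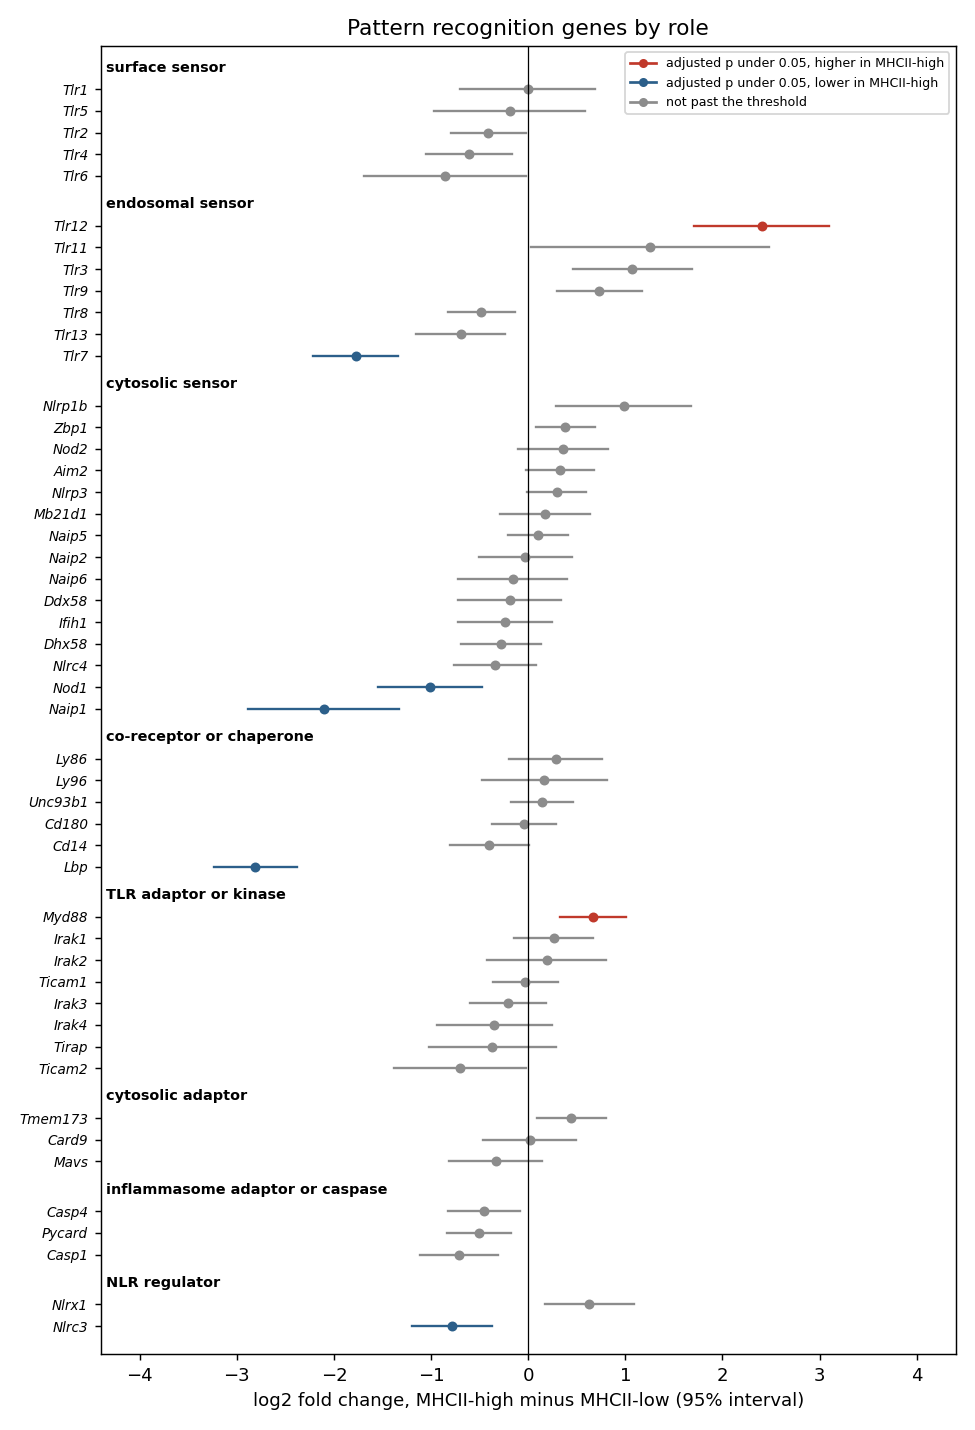
Log2 fold change of each of the 49 genes, MHCII-high minus MHCII-low, with its 95% interval from limma (4 arrays per group), grouped by role. Endosomal TLRs spread from -1.78 for Tlr7 to 2.40 for Tlr12, while the 5 surface TLRs lie between -0.86 and -0.01 and none of them passed the threshold.

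The 3 classes of sensor differed in how their members were spread. Surface TLRs had a median log2 fold change of -0.41, with 0 of 5 past the threshold and all 5 below 0. Endosomal TLRs had a median of 0.73, with 1 of 7 higher and 1 lower, and 6 of 7 had groups that did not overlap, 3 in each direction. That median is the value of Tlr9. Over the 5 endosomal receptors of nucleic acids, Tlr3, Tlr7, Tlr8, Tlr9 and Tlr13, the median was -0.48. Cytosolic sensors had a median of -0.03, with 2 of 15 lower, 0 higher and 4 without overlap. The shares over all genes were 4.94% past the threshold and 14.4% without overlap. The cytosolic median changed sign between settings, for example to 0.05 with normexp background correction. Within slide rows 1 and 2 the medians were 0.04 and -0.55 for surface TLRs, 0.43 and 0.35 for endosomal TLRs and -0.07 and 0.18 for cytosolic sensors. The surface median was thus negative in row 2 alone. These medians describe the classes, and no test between classes was made.

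**Figure D2:**
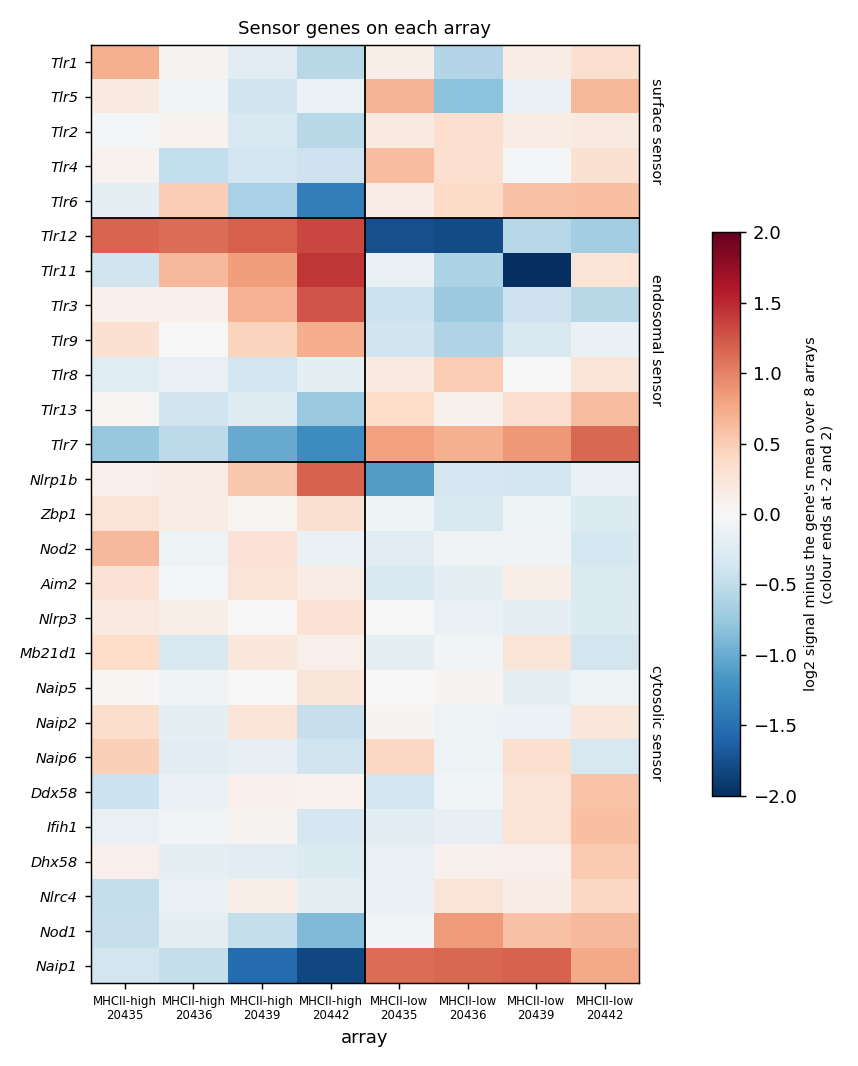
Log2 signal of the 27 sensor genes on each array, minus the mean of the gene over the 8 arrays, with MHCII-high arrays on the left. Tlr12 is above its mean on every MHCII-high array and Tlr7 and Naip1 are below theirs, while the 3 helicases, Naip2, Naip5 and Naip6 show no separation of the groups.

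Among the endosomal TLRs, Tlr12, which in mice recognises profilin of Toxoplasma, showed the largest difference. Its signal was 2.24, 2.18, 2.26 and 2.41 on the MHCII-high arrays, against -0.69, -0.72, 0.51 and 0.38 on the MHCII-low arrays. The MHCII-high arrays lay close together and the MHCII-low arrays lay apart, with no overlap. Tlr12 was 5.29-fold higher in MHCII-high (95% interval 3.27 to 8.57, limma adjusted p = 0.00558), and its log2 fold change was 2.20 when the slide row was fitted as a block (adjusted p = 0.031). Tlr11, its close relative and partner in profilin recognition, had values of -3.51, -2.47, -2.29 and -1.69 in MHCII-high, against -3.26, -3.74, -5.12 and -2.85 in MHCII-low. The Tlr11 groups overlapped, and its log2 fold change of 1.25 did not pass (adjusted p = 0.243).

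Tlr7, the endosomal receptor for single-stranded RNA, moved the other way. Its signal was -1.75, -1.51, -1.99 and -2.25 in MHCII-high, against -0.17, -0.27, -0.11 and 0.16 in MHCII-low. All 4 MHCII-high arrays lay below all MHCII-low arrays, and Tlr7 was 3.43-fold lower in MHCII-high (2.52 to 4.65, adjusted p = 0.0034), with log2 values of -1.32 and -2.16 within slide rows 1 and 2. Its brightest probe lies on mm9 at chrX:163742863-163742922. A second Tlr7 probe gave -1.49, and another, at chrX:163747214-163747273, gave 0.06, so the probes of this gene disagreed. Fitting the slide row as a block gave Tlr7 a log2 fold change of -1.74 (adjusted p = 0.022).

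The other nucleic acid receptors of the endosome had values on both sides of 0, and none passed the threshold. Tlr3, which binds double-stranded RNA, was at -0.63, -0.62, -0.03 and 0.53 in MHCII-high and at -1.15, -1.47, -1.14 and -1.28 in MHCII-low. The groups did not overlap, and the log2 fold change was 1.07 (adjusted p = 0.0612). A dimmer Tlr3 probe, which cleared background on 2 of the 4 MHCII-low arrays, gave 2.75. Tlr9, which binds unmethylated CpG DNA, was at 3.07, 2.76, 3.21 and 3.5 in MHCII-high and at 2.37, 2.17, 2.45 and 2.64 in MHCII-low. Its lowest MHCII-high array was above the highest MHCII-low array, with a log2 fold change of 0.73 (adjusted p = 0.0698). Tlr3 and Tlr9 passed with normexp background correction (0.0344 and 0.0184) and when only probes well above background on all 8 arrays were kept (0.0379 and 0.0494). Across all settings tried, their adjusted p reached 0.2 and 0.215, both when slide row was a block.

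Tlr8, a relative of Tlr7 encoded beside it on the X chromosome, was at 1.29, 1.38, 1.13 and 1.33 in MHCII-high and at 1.70, 2.04, 1.53 and 1.79 in MHCII-low. Tlr13, a mouse receptor for bacterial ribosomal RNA, was at 2.01, 1.59, 1.73 and 1.24 in MHCII-high and at 2.36, 2.08, 2.3 and 2.61 in MHCII-low. Neither gene overlapped between groups, both being lower in MHCII-high, but the log2 fold changes of -0.48 and -0.70 did not pass (adjusted p = 0.119 and 0.0903). All 4 Tlr8 probes were negative, at -0.24 to -0.83, as were both Tlr13 probes, the second at -0.57. Unc93b1, the chaperone that carries nucleic acid-sensing TLRs to endosomes, had a log2 fold change of 0.14 (adjusted p = 0.635, 95% interval of the fold 0.882 to 1.37).

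Plasmacytoid dendritic cells and B cells are known for Tlr7 and Tlr9, so their markers are given beside these results. Of 6 plasmacytoid markers, 1 was higher in MHCII-high, Ly6d (log2 1.18, adjusted p = 0.0346), where 4.94% of all genes passed in either direction. The Ly6d call held in 2 of 8 leave-one-out fits and ended when slide row was a block (0.131). In 2 of the 6 the groups did not overlap, both higher in MHCII-high, where this held for 7.57% of all genes. The log2 fold changes of the 6 ran from -0.27 to 1.98, and Siglech had 0.06. The mean log2 signal of that list was 0.98 to 1.42 in MHCII-high and 0.70 to 0.82 in MHCII-low. For Cd79a, a B cell marker, the log2 value was 1.09, short of the threshold (adjusted p = 0.255). Dendritic cell markers, 9 of 12 of which were higher in MHCII-high, moved in the direction of Tlr12, and tissue-resident macrophage markers, 5 of 8 of which were lower, in that of Tlr7. Their part in the TLR differences was not tested.

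**Figure D3:**
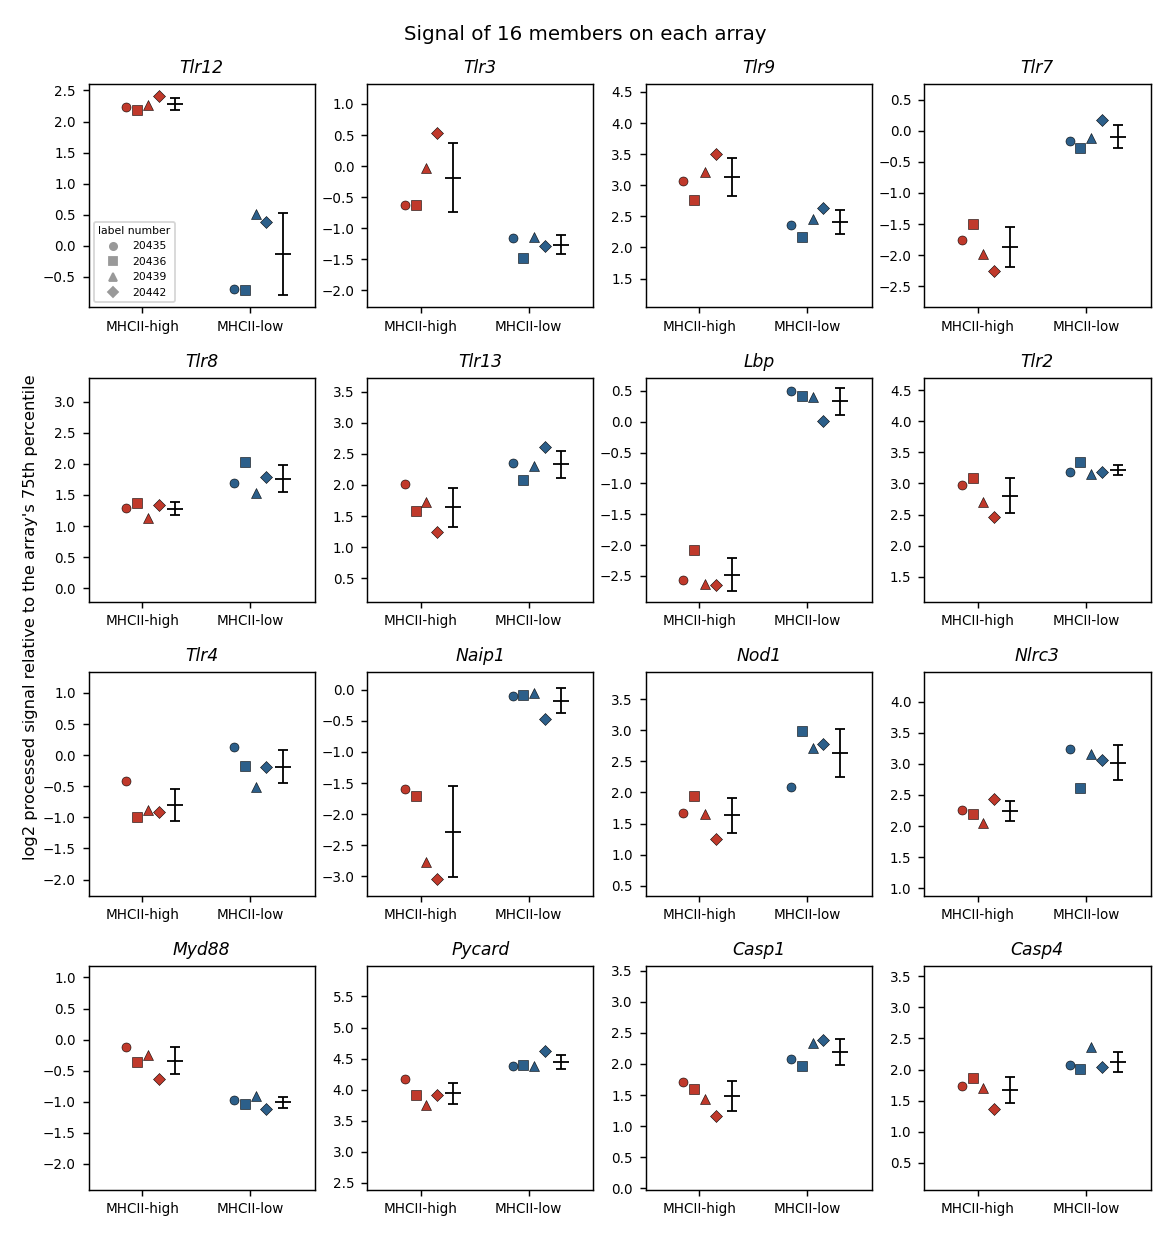
Log2 processed signal of 16 genes on each array, relative to the 75th percentile of the array, with MHCII-high on the left of each panel, markers for the label numbers, and a bar for the mean and SD of 4 arrays. Tlr12, Tlr3 and Tlr9 are higher in MHCII-high without overlap, and Tlr7, Lbp and Naip1 are lower, at log2 fold changes of -1.78, -2.81 and -2.11. Vertical ranges differ between panels.

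At the cell surface, Tlr2, the lipopeptide receptor, was at 2.97, 3.08, 2.70 and 2.46 in MHCII-high and at 3.18, 3.34, 3.16 and 3.18 in MHCII-low. The groups did not overlap, but the log2 fold change of -0.41 did not pass (adjusted p = 0.222). Tlr6, which pairs with Tlr2, had a log2 fold change of -0.86 (adjusted p = 0.238), with signals of -2.89 to -1.01 in MHCII-high and -1.36 to -0.91 in MHCII-low. Tlr1, the other Tlr2 partner, was at -0.01, and Tlr5, the flagellin receptor, at -0.19. Tlr1, Tlr2 and Tlr6 were each lowest on MHCII-high 20442 among the MHCII-high arrays. Tlr4, the lipopolysaccharide receptor, was at -0.42, -0.99, -0.88 and -0.91 in MHCII-high and at 0.13, -0.17, -0.52 and -0.19 in MHCII-low. Its groups overlapped by 1 array, MHCII-high 20435, and the log2 fold change of -0.61 did not pass (adjusted p = 0.119). Other Tlr4 probes gave -1.06 and 0.38.

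The lipopolysaccharide co-receptors were uneven. Lbp, the secreted protein that hands lipopolysaccharide to Cd14, was at -2.56, -2.07, -2.63 and -2.65 in MHCII-high and at 0.49, 0.42, 0.39 and 0.01 in MHCII-low. The distance between the groups was several times the spread within either. Lbp was 7.01-fold lower in MHCII-high (5.22 to 9.41, adjusted p = 0.000451), with -2.51 and -2.63 within the slide rows and -2.57 with the row as a block (adjusted p = 0.00119). Cd14, which passes lipopolysaccharide on to Tlr4, was at 4.01, 4.04, 3.55 and 3.45 in MHCII-high and at 4.29, 4.18, 4.01 and 4.18 in MHCII-low. These groups overlapped, and the log2 fold change of -0.40 did not pass (adjusted p = 0.265). Ly96 (MD-2), the lipopolysaccharide-binding subunit of the Tlr4 complex, had 0.17, while a second Ly96 probe gave -0.97. Cd180 and its partner Ly86, a Tlr4-like complex without a signalling domain, had -0.05 and 0.29. None of Ly96, Cd180 and Ly86 passed (adjusted p of 0.499 or higher).

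Among cytosolic sensors, Naip1 showed the largest difference. NAIP proteins bind bacterial flagellin or secretion-system subunits and then activate Nlrc4, and mouse Naip1 binds the needle subunit of type III secretion systems. Naip1 was at -1.6, -1.71, -2.77 and -3.05 in MHCII-high and at -0.11, -0.08, -0.04 and -0.47 in MHCII-low. The MHCII-high arrays were spread over more than 1 log2 unit and all lay below the MHCII-low arrays. The gene was 4.31-fold lower in MHCII-high (2.52 to 7.38, adjusted p = 0.0136). Fitting slide row as a block gave -1.82 and ended the call (adjusted p = 0.0603), with -1.64 and -2.0 within rows. The second Naip1 probe printed above gave -0.43.

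The neighbouring NAIP genes gave values near 0: Naip2, the receptor for the secretion-system rod, was at -0.03, and the flagellin receptors Naip5 and Naip6 were at 0.10 and -0.16. Their adjusted p ranged from 0.721 to 0.956, and a second Naip5 probe gave -0.55. NAIP genes are close paralogs, and whether their probes share signal was not tested. Nlrc4, the shared partner of the NAIPs, had a log2 fold change of -0.34 (adjusted p = 0.352).

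Nod1, which senses peptidoglycan fragments, was at 1.67, 1.94, 1.66 and 1.25 in MHCII-high and at 2.09, 2.98, 2.71 and 2.78 in MHCII-low. The groups did not overlap, though MHCII-low 20435 lay near the MHCII-high arrays. Nod1 was 2.01-fold lower in MHCII-high (1.39 to 2.91, adjusted p = 0.0466), a call that held in 1 of 8 leave-one-out fits, that without MHCII-low 20435 (adjusted p from 0.03 to 0.116), and ended when slide row was a block (0.156). Nod2, which senses muramyl dipeptide, was at 0.36 (adjusted p = 0.379). A second Nod2 probe gave 1.34, and the mean of its probes passed at a log2 fold change of 0.85 (adjusted p = 0.0248).

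Inflammasome sensors other than Naip1 did not pass. Nlrp3, the sensor of ion efflux and membrane damage, was at 4.82, 4.76, 4.65 and 4.94 in MHCII-high and at 4.65, 4.52, 4.46 and 4.37 in MHCII-low. The ranges met at 4.65, and the log2 fold change was 0.29 (adjusted p = 0.282). Aim2, which binds cytosolic double-stranded DNA, was at 2.45, 2.15, 2.42 and 2.31 in MHCII-high and at 1.86, 1.98, 2.29 and 1.88 in MHCII-low, overlapping by MHCII-low 20439 (log2 0.33, adjusted p = 0.282). A dimmer Aim2 probe gave -0.61. Nlrp1b, a sensor of proteases such as anthrax lethal factor, was at 0.64, 0.68, 1.08 and 1.72 in MHCII-high and at -0.59, 0.21, 0.17 and 0.40 in MHCII-low. Its groups did not overlap, its 3 probes gave 0.98, 0.59 and 1.11, and the brightest did not pass (adjusted p = 0.113). The mean of the Nlrp1b probes passed at 0.89 (adjusted p = 0.0167).

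The shared inflammasome machinery was lower in MHCII-high by values in all 3 genes. Pycard (ASC), the adaptor, was at 4.18, 3.92, 3.76 and 3.92 in MHCII-high and at 4.39, 4.4, 4.38 and 4.62 in MHCII-low. Casp1, the protease that matures interleukins of the Il1b type, was at 1.71, 1.6, 1.44 and 1.16 in MHCII-high and at 2.08, 1.96, 2.34 and 2.38 in MHCII-low. Casp4 (caspase-11), which binds cytosolic lipopolysaccharide, was at 1.74, 1.87, 1.70 and 1.37 in MHCII-high and at 2.08, 2.0, 2.36 and 2.05 in MHCII-low. None of the 3 genes overlapped between groups, where 6.85% of all genes were lower in MHCII-high without overlap. None of the 3 passed: the log2 fold changes were -0.50, -0.71 and -0.45 with adjusted p of 0.0916, 0.0582 and 0.16. Casp1 passed with normexp background correction (0.0235), with quantile normalization (0.0439), in the authors' deposited series table (0.0481) and with the filter on all 8 arrays (0.0408). Pycard passed with quantile normalization (0.0497). Across the settings tried the adjusted p of Casp1 reached 0.156 and that of Pycard 0.428 (mean of its probes). The second Pycard probe, which entered that mean, lies on the opposite strand to the first and to the gene in RefSeq. Its mean log2 signal was -1.17, against 4.19 for the first, and its log2 fold change was -0.24.

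The sensors of cytosolic nucleic acids that lead to interferon genes showed small differences. The RIG-I-like helicases Ddx58 (RIG-I), Ifih1 (MDA5) and Dhx58 (LGP2) were at -0.19, -0.24 and -0.28, with adjusted p of 0.437 to 0.705, and their signals overlapped between groups. Mb21d1 (cGAS), the DNA sensor upstream of STING, was at 0.18 (adjusted p = 0.686). Zbp1, a sensor of left-handed nucleic acids, was at 0.89, 0.77, 0.66 and 0.93 in MHCII-high and at 0.53, 0.32, 0.52 and 0.35 in MHCII-low. These Zbp1 values did not overlap, and the log2 fold change of 0.38 did not pass (adjusted p = 0.157). Tmem173 (STING) was at 3.90, 3.58, 3.76 and 3.87 in MHCII-high and at 3.33, 3.04, 3.46 and 3.51 in MHCII-low. It too did not overlap, with a log2 fold change of 0.44 (adjusted p = 0.159). Mavs, the helicases' adaptor, was at -0.33 and Card9, which relays signals of C-type lectin receptors, at 0.01, and neither passed.

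Of the 8 TLR adaptors and kinases, 1 was higher in MHCII-high and 0 lower, where 4.94% of all genes passed in either direction. Myd88, the adaptor of all TLRs except Tlr3, was at -0.12, -0.36, -0.24 and -0.63 in MHCII-high and at -0.97, -1.04, -0.91 and -1.11 in MHCII-low. The groups did not overlap, and Myd88 was 1.59-fold higher (1.25 to 2.02, adjusted p = 0.0445). The call ended in 7 of 8 leave-one-out fits, all but that without MHCII-high 20442 (adjusted p from 0.0343 to 0.129), and when slide row was a block (0.122). Ticam1 (TRIF), the adaptor of Tlr3, was at -0.03, its bridging partner Ticam2 (TRAM) at -0.70 and Tirap (MAL), which bridges Tlr2 and Tlr4 to Myd88, at -0.37. A dimmer Ticam2 probe cleared background on 3 of 4 MHCII-high arrays but on 0 of 4 MHCII-low arrays. Its mean on the MHCII-high arrays, including the array where it did not clear background, was 1.63-fold above the lowest signals above background on the MHCII-low arrays. The brightest Ticam2 probe had a negative value. The kinases Irak1, Irak2 and Irak4 were at 0.26, 0.19 and -0.35, and Irak3 (IRAK-M), an inhibitor of the pathway in macrophages, at -0.21. Dimmer probes gave 0.46 and 0.85 for Irak2 and -0.68 and -0.50 for Irak3, larger in size than the brightest. Those of Irak1 gave -0.32 and 0.06, and that of Irak4 gave 0.33. By the brightest probe, none of these 7 genes passed (adjusted p of 0.235 or higher).

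Of the regulatory NOD-like receptors, Nlrc3, described in mice as a brake on innate and T cell signalling, was at 2.26, 2.19, 2.05 and 2.44 in MHCII-high and at 3.24, 2.61, 3.17 and 3.06 in MHCII-low. The groups did not overlap, and Nlrc3 was 1.72-fold lower in MHCII-high (1.3 to 2.28, adjusted p = 0.0458). The call held in 1 of 8 leave-one-out fits, that without MHCII-low 20436 (adjusted p from 0.0273 to 0.132), and ended when slide row was a block (0.128). The dimmer Nlrc3 probes gave -2.01 and -0.78. T and NK cell markers, given here since T cells express Nlrc3, had 0 of 7 past the threshold, with a mean log2 signal of -1.80 to -1.03 in MHCII-high and -1.84 to -1.16 in MHCII-low. Nlrx1, a mitochondrial member of the family, was at 0.29, -0.21, -0.14 and -0.32 in MHCII-high and at -0.35, -0.74, -1.04 and -0.77 in MHCII-low. It did not overlap and did not pass (log2 0.63, adjusted p = 0.122).

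**Figure D4:**
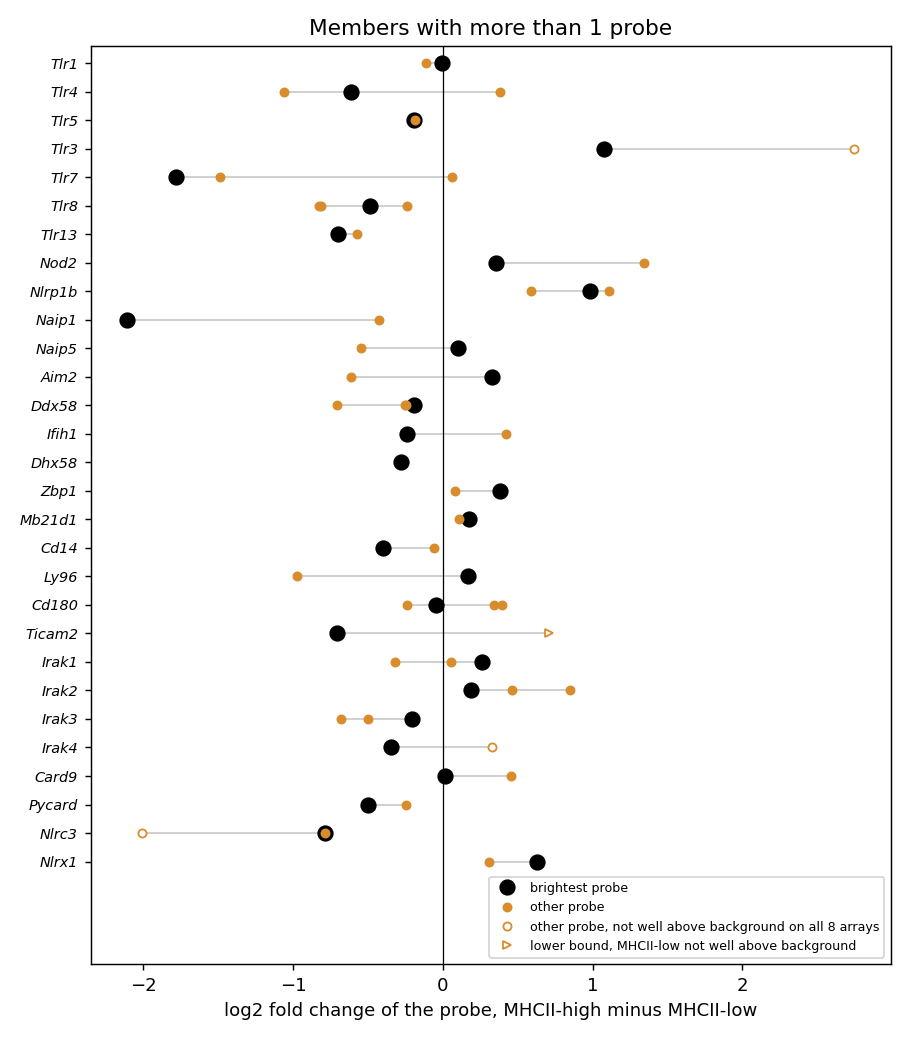
Log2 fold change, MHCII-high minus MHCII-low, of every probe of the 29 genes with more than 1 probe. Black points are the brightest probes, which represent the genes, and open points are probes not well above background on all 8 arrays. The triangle of Ticam2, labelled a lower bound, is set against the lowest signals above background on the MHCII-low arrays. A Dhx58 probe that cleared background on no array is not drawn. The probes of 10 genes lie on both sides of 0, among them Tlr4, Tlr7 and Ticam2.

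The 49 genes had 91 probes in all, and 20 genes had 1 probe. Probes of 10 of the other 29 genes differed in sign: Aim2, Cd180, Ifih1, Irak1, Irak4, Ly96, Naip5, Ticam2, Tlr4 and Tlr7. Of the 7 genes past the threshold, Tlr12, Nod1, Lbp and Myd88 were read by 1 probe, and Naip1, Nlrc3 and Tlr7 by 2 or 3. Within groups the members varied about as much as other genes, with a median SD of 0.27 on the log2 scale, against 0.32 over all genes, and a range of 0.12 to 0.88.

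Of 57 partner genes of the same pathways, in 4 lists, 3 passed the threshold, all higher in MHCII-high, where 4.94% of all genes passed. Of 24 genes of signal relay and transcription, 2 were higher in MHCII-high and 0 lower, Irf5, a transcription factor activated downstream of Myd88, and Nfkb1, a subunit of NF-kappa B. Irf5 was 2.01-fold higher (1.4 to 2.89, adjusted p = 0.0443) and Nfkb1 1.57-fold (1.28 to 1.92, adjusted p = 0.0274). Both calls ended in 7 of 8 leave-one-out fits (highest adjusted p 0.123 and 0.0779) and when slide row was a block (0.137 and 0.108). Of 12 brakes on signalling, 1 was higher and 0 lower. It was Sigirr, an inhibitory receptor of the interleukin and TLR family, which was 3.33-fold higher (2.28 to 4.85, adjusted p = 0.00744), with a log2 mean of -0.91 ± 0.42 in MHCII-high and -2.65 ± 0.26 in MHCII-low (SD, n = 4 each), and kept its call in all 8 of those fits and under the row block (0.0299). Of 10 genes that fold TLRs or process them in endosomes, and of 11 inflammasome partners and products, 0 passed, with log2 fold changes of -0.69 to 0.38 and -1.62 to 0.64. The median of these lists was 0.09 for relay genes, 0.05 for brakes, -0.16 for TLR processing and -0.23 for inflammasome partners, beside 0.01 over all genes.

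Promoter sequence was available for 39 of the 49 genes from RefSeq (GRCm38.p6), as the 250 bases before and 50 bases after each start. The core of the interferon response element, GAAA and GAAA with any 2 bases between them, was searched on both strands and found in 5 of the 39 (12.8%), Tlr6, Tlr11, Ddx58, Ifih1 and Myd88, and in 3.99% of 27025 genes. A kappa B pattern, GGG and TTCC with any 3 bases between them, was found in 6 (15.4%, against 6.31% of all) and a PU.1 core, GAGGAAGT, in 6 (15.4%, against 3.69%). A match is a run of letters and not a measured binding site. Stretches around the first pattern, in capitals, are shown for Myd88, which passed the threshold, and for Ddx58 and Ifih1, which carry the same pattern and did not. In the Ddx58 stretch the capitals are the pattern read from the other strand.
Myd88 (within chr9:119339969-119340268 of GRCm38.p6, minus strand): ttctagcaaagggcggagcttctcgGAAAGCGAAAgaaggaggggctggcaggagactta
Ddx58 (within chr4:40239776-40240075 of GRCm38.p6, minus strand): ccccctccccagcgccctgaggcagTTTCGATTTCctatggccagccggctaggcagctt
Ifih1 (within chr2:62646206-62646505 of GRCm38.p6, minus strand): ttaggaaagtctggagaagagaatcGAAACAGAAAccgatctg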

How the data were processed

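Each scanner file as deposited gives, for every spot, a linear intensity in 1 colour (Cy5). Agilent Feature Extraction 11.5.1.1 made these values, per the submitters' processing notes. Background subtraction, detrending within the array and surrogate values for dim spots were applied to the processed signal, per the file headers. The deposited series table holds log2 values whose columns share nearly the same quantiles. How the authors made it is not given in the sources used here. Its columns correlated at 0.99999 or higher with quantile-normalized log2 signals computed here.

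Of 62976 spots per array, 3671 controls and the 67 to 160 flagged as outliers by the scanner software were dropped. Saturation was not seen. From each log2 signal the array's 75th percentile was subtracted, and spots sharing a probe were averaged. A probe had to be well above background on 4 or more of 8 arrays, and the brightest kept probe stood for its gene. Names followed RefSeq (GRCm38.p6, for names only) for 43849 of 56605 probes and the files for the rest. The comparison used limma 3.58.1 (lmFit, eBayes; R 4.3.3), two-sided, with no covariate and Benjamini-Hochberg adjustment over 28000 genes, and the code was tested on simulated data. The number of arrays limits the precision. Per-array values are printed for members past the threshold, members whose groups do not overlap and 10 fixed sensors and adaptors, and log2 fold changes for the others. Genes of other lists are named only past the threshold or as defining markers, and the B cell list as a whole is not reported here. Members and lists were chosen with earlier results of these data known. Alternatives were normexp (offset 50), quantile normalization, the series table, no filter, a filter on all 8 arrays, the mean of probes, slide row, the label number as a replicate block, and leaving out each array.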

Additional observations from a re-analysis of the deposited data

Results flagged for a closer look

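Among the 98 groups of 4 arrays (49 genes in 2 groups), 8 had 1 array set apart from the other 3 by more than the 95% critical value of Dixon's test, where chance gives about 1 in 20 groups. MHCII-low 20442, the only MHCII-low array in slide row 2, accounted for 4. There Naip1 was at -0.47 (the others at -0.11 to -0.04), Ly96 at 7.0 (6.15 to 6.23), Irak2 at 6.51 (5.78 to 5.83) and Pycard at 4.62 (4.38 to 4.4). Ly96 and Irak2 were also highest on the MHCII-high array of the same label number, at 7.13 and 6.82. Lbp was at -2.07 in MHCII-high 20436 (-2.65 to -2.56 on the others) and Irak3 at 1.33 in MHCII-high 20442 (1.49 to 1.53). Tlr2 was at 3.34 in MHCII-low 20436 (3.16 to 3.18) and Ticam1 at -0.33 in MHCII-high 20435 (-0.19 to -0.18). The calls of Naip1 and Lbp held without the array named.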

How the results depend on the processing

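Tlr7, Tlr12 and Lbp passed the threshold under all 16 alternatives, and Naip1 under all but the slide row as a block. Members higher in MHCII-high numbered 2 in the reported fit, 4 with normexp, 4 with the filter on all 8 arrays, 5 with the mean of probes (including Tlr3, whose dimmer probe cleared background on 2 of 4 MHCII-low arrays), 1 without a filter, 1 with the slide row as a block, 1 with the replicate block and 1 to 2 with 1 array left out. Members lower numbered 5, then 6 with normexp, 7 with quantile normalization, 6 with the series table, 6 with the filter on all 8 arrays, 3 without a filter, 2 with the slide row, 3 with the replicate block and 3 to 4 with 1 array left out. Over all genes, 1384 passed, 1886 with normexp, 1654 with the filter on all 8 arrays, 465 with the slide row, 809 with the replicate block and 555 (without MHCII-high 20439) to 1157 with 1 array left out. Deviations from the group means of same-numbered arrays correlated at 0.19, 0.13, 0.21 and 0.083 for 20435, 20436, 20439 and 20442, the last under 0.1, and other pairs at up to 0.073, so the numbers were not taken as pairs. With the replicate block Nod1, Myd88, Nlrc3, Irf5 and Nfkb1 did not pass (adjusted p = 0.0868, 0.0932, 0.102, 0.0626 and 0.0871), nor did Ly6d (0.0546). All 8 arrays correlated best with the array of their own label number in the other group, a hint from the data and not from the design. The endosomal median was 0.53 with the slide row, and the cytosolic median -0.14 with the mean of probes. None of the 7 members past the threshold changed sign under these 16 alternatives. The cytosolic median, near 0, ranged from -0.12 to 0.04 with 1 array left out. Where a call was lost, the cause was not tested, beyond the fewer arrays or residual degrees of freedom in fits with a block or an array left out. All 49 brightest probes were well above background on every array, but some were dim. Tlr11 was at -5.12 on MHCII-low 20439, where the lowest signal above background was -5.33. With normexp its log2 fold change went from 1.25 to 0.56. Called members moved as well: Naip1 from -2.11 to -1.59, Lbp from -2.81 to -2.24 and Tlr7 from -1.78 to -1.44.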
